A study of Mus musculus with 35 samples.

Results

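The 42 genes described here encode the machinery that copies DNA in S phase: the replicative helicase, the proteins that load it at origins, the sliding clamp and its loader, the DNA polymerases, the factors that bind and join single strands, the enzymes that make deoxynucleotides, and the chromatin proteins that follow the fork. They were taken by symbol from a list of replication genes, which was drawn up with earlier results of these data known, and all 42 were found among the 24421 genes counted. After a filter on low counts all 42 were tested, among 13805 genes in the populations and 13223 in the clones. The question was whether these genes followed the loss of Nelfb, which encodes a subunit of NELF, the negative elongation factor that holds RNA polymerase II near the start of genes, and the return of wild-type or mutant NELFB.

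All 35 libraries came from iMEFs, immortalized mouse embryonic fibroblasts of the genotype Nelfb flox/-, with 1 floxed and 1 null allele, so that the controls also lacked 1 copy. Populations carried an empty lentiviral vector (EV) or the same vector with WT NELFB, MT194, MT486 or DMT, which the labels write as MT194&486. MT194 and MT486 are alanine substitutions of NELFB that the study made to break its contact with NELFA and NELFC and with NELFE. Each of the 5 constructs was sequenced 7 days after an adenovirus with Cre and GFP, which deletes the floxed allele, or with GFP alone, in 2 replicates, which gave 20 libraries in 10 groups (EV-Cre, EV-GFP and so on). The other 15 libraries were single-cell clones grown out after Ad-Cre, 3 each with WT, MT194 or MT486 in a pLenti vector and with WT(N48) or Δ-C60, a truncation of NELFB, in a pBabe vector. What N48 denotes was not given in the sources used here. A population holds cells that took up virus to different degrees, and a clone descends from 1 cell, so clones of a group can differ for reasons other than the construct. Reads on genes numbered 17969149 to 29080007 per population library and 18413284 to 27816723 per clone library.

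Replication starts in G1, when ORC, Cdc6 and Cdt1 load the Mcm helicase onto origins in an inactive form. In S phase Cdc45 and the GINS complex join the helicase, Pcna clamps the polymerases to DNA, and the transcription factor E2f1, released from the retinoblastoma protein, is known to drive many of the genes concerned. In fibroblasts their RNA is low in resting cells and high in cycling ones, and in bulk RNA fewer cells in S phase and less RNA per cell cannot be told apart.

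Promoter entries of RefSeq (GRCm38.p6, 250 bases before to 50 after the start) were found for 35 of the 42 genes, 41 entries in all. The E2F words TTTCCCGC, TTTCGCGC, TTTGCCGC and TTTGGCGC, searched on both strands and able to overlap each other, were present in 14 of these 41 promoters and in 2.26% of all 32851 promoters of the same length. The 14 genes were Cdc6, Cdt1, Gins3, Lig1, Mcm3, Mcm5, Mcm6, Mcm7, Orc1, Pola1, Pold1, Pole2, Rfc3 and Uhrf1. The CCAAT word was present in 23 of the 41 and in 37.4% of all promoters. A match is a run of letters, not a site known to be bound. In 5 genes a word lay before the start of the RefSeq entry and the stretch around it overlapped no annotated exon, and these stretches are shown to let the words of the helicase genes be set beside those of a loader (Cdc6), a polymerase (Pola1) and a chromatin gene (Uhrf1), with the words in capitals and on the strand of the gene: Cdc6 at chr11:98907991-98908042 (plus strand), Mcm5 at chr8:75109334-75109389 (plus), Mcm6 at chr1:128359782-128359837 (minus), Pola1 at chrX:93632264-93632315 (minus) and Uhrf1 at chr17:56304106-56304157 (plus).
Cdc6: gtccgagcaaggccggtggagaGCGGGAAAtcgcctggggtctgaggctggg
Mcm5: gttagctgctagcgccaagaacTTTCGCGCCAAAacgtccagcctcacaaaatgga
Mcm6: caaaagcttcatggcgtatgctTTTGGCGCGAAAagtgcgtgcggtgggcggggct
Pola1: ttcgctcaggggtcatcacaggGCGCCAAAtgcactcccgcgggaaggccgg
Uhrf1: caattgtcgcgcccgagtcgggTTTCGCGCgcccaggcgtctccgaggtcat
In Mcm5 and Mcm6 a pair of words on opposite strands overlap, which gives a run of 12 capitals, whereas Cdc6, Pola1 and Uhrf1 hold 1 word of 8 bases each. The RefSeq starts of Cdc6 and Uhrf1 lie downstream of the first annotated base of the gene in GENCODE, so that both stretches fall within the gene but outside its exons.

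Nelfb itself, on chromosome 2 from 25199712 to 25211489 of GRCm38 (mm10), was measured first as a check of the labels. Its level, in CPM (counts scaled to a common library size, with TMM normalization), was 46.1 and 39.6 in the EV-GFP libraries and 7.97 and 5.46 in the EV-Cre libraries, which is −2.67 as a log2 fold change with an adjusted p of 2.53e-05 and a standard error of 0.22. The GFP and Cre groups did not overlap. With a construct, reads of the ectopic cDNA count alike: CPM was 97.5 and 82.8 in WT-GFP and 75.9 and 60.5 in WT-Cre, 74 and 62.1 in MT194-GFP and 104 and 119 in MT194-Cre, 92.9 and 78.6 in MT486-GFP and 116 and 128 in MT486-Cre, and 73.5 and 61.6 in DMT-GFP and 169 and 208 in DMT-Cre. Among the clones it was 241, 127 and 56.3 CPM in WT(N48), 247, 208 and 218 in Δ-C60, 189, 216 and 147 in MT194 and 180.3, 158 and 135 in MT486. The libraries labelled WT held 10.3, 109 and 15.5 CPM, and the 200 and 306 reads of clones 1 and 3 go against a label that gives them ectopic WT NELFB, so WT(N48) served as the reference. MT486 clones 1 and 2 differed by a chi-square of 5.06 per degree of freedom over genes, against 32.4 to 349 for the other pairs of clones of a group. They were kept as 2 samples by their labels, but a difference of this size can also arise between cultures of 1 line, so whether the MT486 group holds 3 separate lines cannot be told. With both summed into 1 sample 0 members were called in MT486, as with 3.

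Fibroblast identity was checked by 8 markers, of which 7 had a mean over 1 CPM. Single clones departed from these means: Dcn, decorin, was at 2.37 and 0.494 CPM in Δ-C60 clones 1 and 3 and at 673 in MT194 clone 2, and Col3a1, a collagen, at 44.95 in the library labelled WT 3 and 1901 in MT194 clone 1. Fn1, the fibronectin gene, was the most abundant (mean 13760 CPM in the populations and 6229 in the clones), and Thy1 was nearly absent (0.027 and 0.022 CPM). Markers of epithelial, endothelial, and adipocyte or muscle cells had means under 1 CPM, with 1 clone carrying most of a mean in 2 cases: Myod1, a muscle regulator, was at 13.7 CPM in MT194 clone 1 and at most 1.04 in any other clone, and Kdr, an endothelial receptor, at 3.72 in Δ-C60 clone 3 and at most 0.409 in any other. Among 5 blood markers Cd68 alone was above it, at 3.19 CPM in the populations and 1.94 in the clones.

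Among the 42 genes, the level per kilobase of annotated exon spanned from 1.42 CPM per kb for Pole2, a small subunit of polymerase epsilon, to 24.7 for Mcm4, a helicase subunit, as means over the populations. Mcm3, Mcm5 and Pcna followed Mcm4 at 22.8, 22 and 18.6 CPM per kb. In the clones the lowest was again Pole2 at 3.99 CPM per kb and the highest was Mcm5 at 116. Counted over all 42 genes, replication RNA took 1082 to 2888 CPM of each population library, and each clone library held 4005 to 7912. The ranges did not overlap, and what set them apart cannot be told from a design in which every clone, and no population, was grown from a single colony. Between the highest and the lowest population library a gene varied by 1.80-fold (Orc6) to 3.92-fold (Tk1), with a median of 2.39-fold. MT486-Cre replicate 1 was the highest library for 31 of 42 genes and EV-Cre replicate 2 the lowest for 23.

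**Figure D1:**
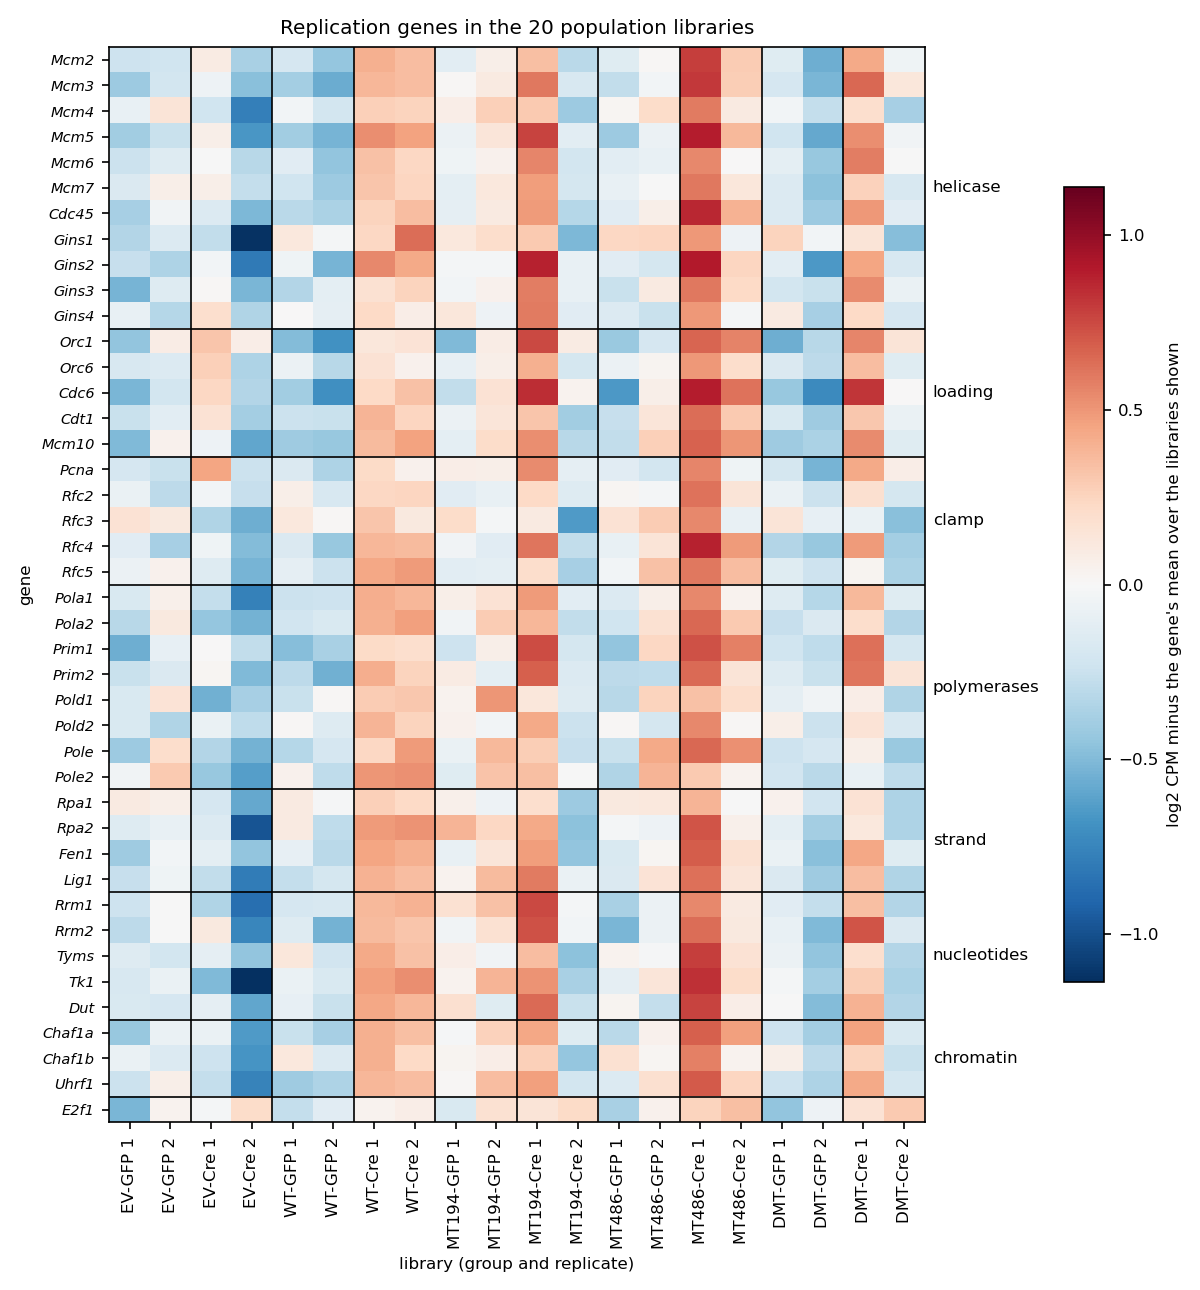
Each row is 1 of the 42 replication genes, ordered by role, and each column 1 of the 20 population libraries, with colour for log2 CPM minus the gene's own mean over the 20 libraries. All 42 genes lay above their mean in MT486-Cre 1, MT194-Cre 1, WT-Cre 1 and WT-Cre 2, 40 in DMT-Cre 1, 2 in EV-Cre 2 and 0 in DMT-GFP 2.

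After deletion of Nelfb in EV cells the replication genes lay on both sides of 0. In EV-Cre against EV-GFP, 27 of 42 had a log2 fold change below 0 and 15 above, with a median of −0.09 against 0.00 for all genes tested. No member passed edgeR's quasi-likelihood test at an adjusted p of 0.05, whereas 13% of all genes did. At an unadjusted p of 0.05, 2 members passed (Rfc3 and Pole2, both lower), against 26.5% of all genes, and DESeq2 called 0 of 42, against 17.8%. The roles differed in their medians: 0.17 for the 5 origin loading factors and 0.05 for the 11 helicase genes, but −0.38 for the 8 polymerase genes and the 4 strand-binding and joining genes, −0.14 for the 5 nucleotide enzymes, −0.32 for the 3 chromatin genes and −0.01 for the 5 genes of the clamp and its loader. All 4 genes of strand binding and joining, all 5 nucleotide enzymes and all 3 chromatin genes had values below 0.

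The medians of the 2 EV experiments lay on opposite sides of 0. The study describes 2 independent experiments, and the replicate numbers are read here as experiments 1 and 2 because same-numbered libraries of different groups deviated together. Within experiment 1 the median log2 ratio of EV-Cre to EV-GFP over the members was 0.15, with 28 of 42 above 0, and within experiment 2 it was −0.43, with 4 of 42 above 0. Of the 42, 14 were below 0 in both experiments and 4 above 0 in both. Over all genes tested the medians were 0.01 and −0.01. By role the medians in experiments 1 and 2 were 0.45 and −0.19 for origin loading, 0.24 and −0.35 for the helicase, 0.04 and −0.11 for the clamp and loader, 0.00 and −0.58 for the polymerases, −0.02 and −0.69 for strand binding and joining, 0.05 and −0.72 for the nucleotide enzymes, and −0.03 and −0.57 for the chromatin genes, so that each was lower in experiment 2. In experiment 1 the values ran from −0.49 (Rfc3) to 0.73 (Cdc6) and in experiment 2 from −1.03 (Tk1) to 0.17 (E2f1). Both EV-Cre libraries lay above both EV-GFP libraries for 0 of 42 members (24.5% of all genes) and below them for 14 of 42 (23.9%). The 14 were Mcm4, Rfc3, Rfc5, Pola1, Pola2, Pold1, Pole2, Rpa1, Rpa2, Lig1, Rrm1, Tk1, Chaf1b and Uhrf1, with 4 of the 8 polymerase genes, 3 of the 4 strand genes and 1 of the 11 helicase genes among them.

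With the experiment as a block in the model, 4 members passed the test in EV, which are named here because they passed. E2f1 was higher (log2 fold change 0.32, adjusted p = 0.0279), where 21.2% of all genes were called higher. Pole2 (−0.66, adjusted p = 0.0386), Rfc3, a subunit of the clamp loader (−0.59, 0.00746), and Rpa1, the large subunit of the single-strand binding protein (−0.47, 0.00979), were lower, where 21.8% of all genes were. A count of 3 lower genes of 42 is below that background. Rpa1 stood at 88.7 and 86.7 CPM in EV-GFP and 72.8 and 55.3 in EV-Cre, Rfc3 at 20.2 and 19.5 in EV-GFP and 14.2 and 12.3 in EV-Cre, and Pole2 at 3.88 and 4.93 in EV-GFP and 2.97 and 2.59 in EV-Cre. In none of these 3 genes did the libraries of EV-Cre and EV-GFP overlap.

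**Figure D2:**
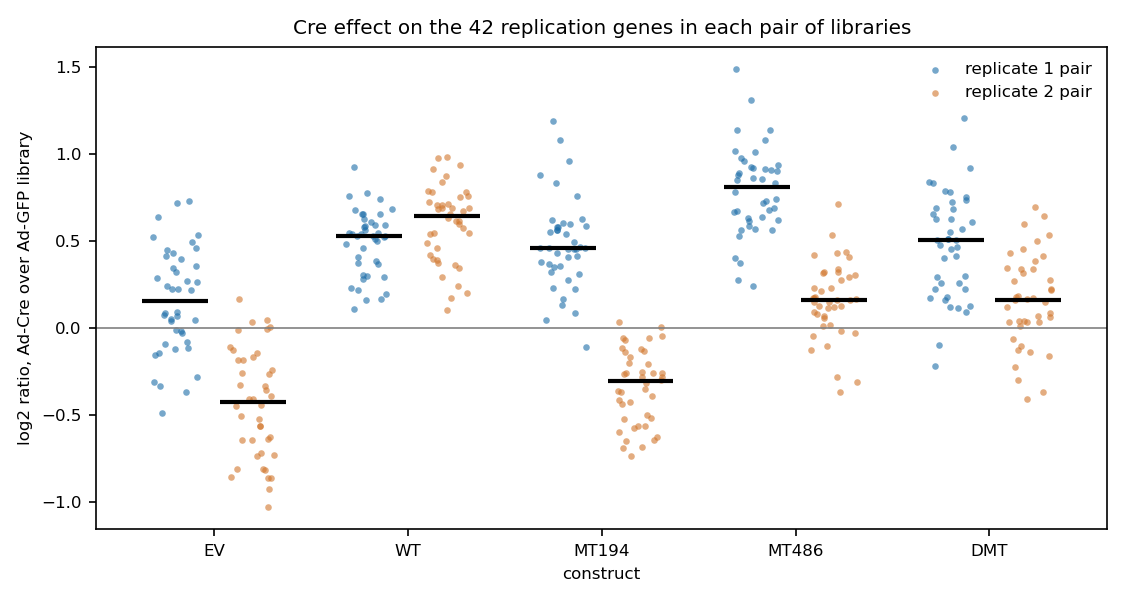
Each point is 1 of the 42 genes, plotted as the log2 ratio of the Ad-Cre to the Ad-GFP library of the same construct and replicate number, with a bar at the median. The replicate 2 medians of EV and MT194 lie below 0 (−0.43 and −0.31), the replicate 1 medians above it (0.15 and 0.46), and WT lies above 0 in both (0.53 and 0.64).

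In cells with ectopic WT NELFB the members stood higher after Cre in both experiments. All 42 had a log2 fold change above 0 in WT-Cre against WT-GFP, from 0.16 (Rfc3) to 0.96 (Mcm5), with a median of 0.61, while 48.5% of all genes tested were above 0. Both WT-Cre libraries lay above both WT-GFP libraries for 41 of 42 members, against 18.7% of all genes. The exception was Rfc3, named after its values were seen, at 19.6 and 18.2 CPM in WT-GFP and 22.5 and 19.6 in WT-Cre. The median within experiment 1 was 0.53 and within experiment 2 it was 0.64. No member passed the test without a block, in a comparison where 0.0217% of all genes passed. At an unadjusted p of 0.05, 21 of 42 did, against 6.22% of all genes, and DESeq2 called 0, against 0.587%. With the block 4 members were called higher, Gins2 and Mcm2 of the helicase, Prim2, the large primase subunit, and Rfc5, where 2.35% of all genes were.

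In MT486 the members also stood higher after Cre, by more in experiment 1 than in experiment 2. All 42 were above 0, from 0.00 (Gins1) to 1.01 (Cdc6), with a median of 0.48. Within experiment 1 the median was 0.81 with 42 above 0, and within experiment 2 it was 0.16 with 34 above 0. Both MT486-Cre libraries lay above both MT486-GFP libraries for 33 of 42 members, against 18% of all genes. Without a block 0 members passed, where 2.54% of all genes did, and 12 had an unadjusted p under 0.05, against 14.5% of all genes. DESeq2 called 1, against 6.39% of all genes, which was Orc1, the largest ATPase subunit of the origin recognition complex. With the block 12 were called higher: Mcm2, Mcm3, Gins2, Gins4, Orc1, Rfc2, Rfc4, Pold2, Prim2, Tyms, Dut and E2f1, where 10.8% of all genes were called higher.

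In DMT, which carries both sets of substitutions, most members stood higher after Cre. The median was 0.37 with 39 of 42 above 0, from −0.29 (Rfc3) to 1.04 (Cdc6). The 5 origin loading factors had the highest median of the roles, 0.62, and the 8 polymerase genes the lowest, 0.13. Within experiment 1 the median of the members was 0.51 and within experiment 2 it was 0.16. Both DMT-Cre libraries lay above both DMT-GFP libraries for 18 of 42, against 24% of all genes. Without a block 0 members passed, where 10.8% of all genes did, and 8 had an unadjusted p under 0.05, fewer than the 24.9% of all genes. DESeq2 called 3, Cdc6, Mcm3 and Orc1, also fewer than its 16% of all genes. With the block 8 were called higher (Mcm2, Mcm3, Mcm6, Orc1, Cdc6, Pcna, Prim2 and E2f1), a share near the 20% of all genes.

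In MT194 the experiments went opposite ways. The median was 0.12 with 29 of 42 above 0, made up of 0.46 within experiment 1, with 41 above 0, and −0.31 within experiment 2, with 2 above 0. Both MT194-Cre libraries lay above both MT194-GFP libraries for 1 member (16.7% of all genes) and below them for 0 (18%). That member was Orc1, chosen after its values were seen, at 5.40 and 8.15 CPM in MT194-GFP and 12.9 and 8.18 in MT194-Cre. No member passed with or without the block, where 4.49% of all genes passed without it and 26.7% with it, and DESeq2 called 0, against 8.17%. At an unadjusted p of 0.05, 1 member passed without the block, Orc1, against 16.4% of all genes.

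The difference between the Cre effects of a construct and of EV was tested as an interaction. Since all 4 differences share the EV libraries, their values are set side by side and not compared. The median over the members was 0.75 for WT with 41 of 42 above 0, 0.23 for MT194 with 37 above 0, 0.66 for MT486 with 42 and 0.48 for DMT with 41, and the medians over all genes tested lay between 0.00 and 0.02. No member passed in any of the 4 without the block. Among all genes 0.681% passed for WT and 0.00724% for each of MT194, MT486 and DMT. At an unadjusted p of 0.05 there were 12, 0, 8 and 2 members in the same order, against 11.7%, 3.22%, 5.18% and 1.15% of all genes. DESeq2 called 1 member, Pole2, for WT, against 3.3% of all genes, and 0 for the others. With the block, 10 members were called for WT, all with the larger Cre effect in WT: Rfc3, Rfc5, Pola1, Pold1, Pole2, Prim2, Rpa1, Rpa2, Tk1 and Chaf1b, where 9.37% of all genes were called in that direction, and 0 for the other constructs. Of these the largest differences, named after their values were seen, were Tk1, thymidine kinase (1.30, standard error 0.40, adjusted p = 0.0469), and Pole2 (1.29, 0.34, 0.0151). Tk1 was at 22.7 and 24.4 CPM in EV-GFP, 18.2 and 11.7 in EV-Cre, 24.4 and 22.8 in WT-GFP and 35.5 and 37.02 in WT-Cre. The EV-Cre libraries lay below both EV-GFP libraries and the WT-Cre libraries above both WT-GFP libraries.

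**Figure D3:**
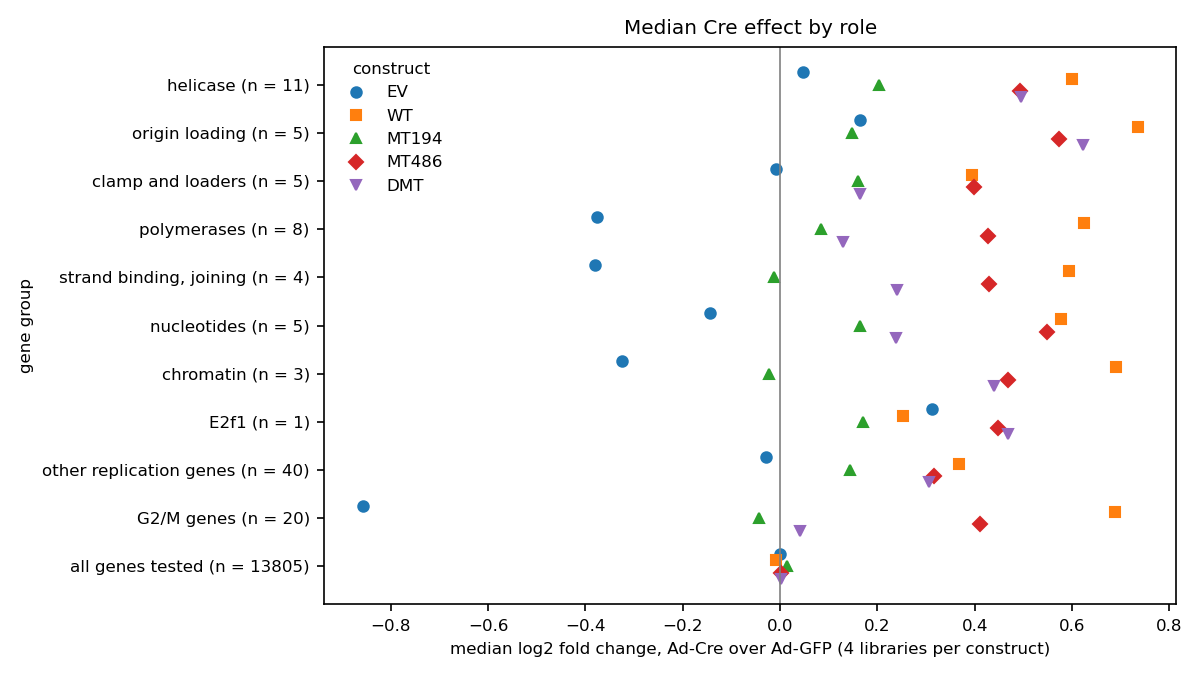
Each symbol is the median log2 fold change of Ad-Cre over Ad-GFP for a gene group in 1 construct (4 libraries each, group sizes in parentheses). EV lies left of 0 for the polymerase, strand and chromatin groups (−0.38, −0.38 and −0.32) and at −0.86 for the G2/M genes, WT lies between 0.25 (E2f1) and 0.74 (origin loading) in the groups of members, and all genes tested lie at about 0.

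Single genes show how the libraries made up these medians. Mcm2, a helicase subunit on chromosome 6 from 88883474 to 88898780, stood at 76.3 and 76.5 CPM in EV-GFP and 95.6 and 69.3 in EV-Cre, and at 78.3 and 65.8 in WT-GFP and 118 and 114 in WT-Cre (log2 fold changes 0.11 and 0.69, standard errors 0.25 and 0.25, adjusted p 0.838 and 0.649). In MT194 it was 82.3 and 93.8 with GFP and 113 and 72.6 with Cre, in MT486 81.4 and 90.3 with GFP and 155 and 109 with Cre, and in DMT 81.4 and 60.95 with GFP and 121 and 86.3 with Cre. The Cre libraries of WT, MT486 and DMT lay above their GFP libraries, while in EV and MT194 the groups overlapped, with the first Cre library above and the second below the GFP libraries.

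Mcm5, another helicase subunit (chromosome 8, 75109569 to 75128439), went the same way with a larger spread. Its CPM was 63.4 and 70.02 in EV-GFP and 87.3 and 52.7 in EV-Cre, 63.3 and 57.9 in WT-GFP and 121 and 115 in WT-Cre, 79.7 and 92.1 in MT194-GFP and 143 and 76.8 in MT194-Cre, 62.5 and 79.8 in MT486-GFP and 156 and 108 in MT486-Cre, and 71.1 and 55.9 in DMT-GFP and 120.4 and 81.1 in DMT-Cre. The log2 fold change was 0.07 (standard error 0.31) in EV and 0.96 (0.31) in WT, with adjusted p of 0.924 and 0.554. Groups were apart in WT, MT486 and DMT.

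Cdc6 (chromosome 11, 98907801 to 98923940), which loads the helicase with ORC, had the largest values of any member in MT486 and DMT. It was at 8.80 and 10.97 CPM in EV-GFP and 14.9 and 10.03 in EV-Cre, 9.63 and 7.79 in WT-GFP and 14.8 and 15.9 in WT-Cre, 10.4 and 14.2 in MT194-GFP and 22.6 and 13.04 in MT194-Cre, 8.05 and 13.3 in MT486-GFP and 23.5 and 19.5 in MT486-Cre, and 9.36 and 7.67 in DMT-GFP and 22.2 and 12.7 in DMT-Cre. The log2 fold change was 1.01 in MT486 (standard error 0.34, adjusted p = 0.153) and 1.04 in DMT (0.34, 0.0698), and with the block the DMT value passed (adjusted p = 0.029). In EV and MT194 the libraries of the treatments overlapped.

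Pcna (chromosome 2, 132249162 to 132253314) encodes the sliding clamp. Its CPM was 38.2 and 36.6 in EV-GFP and 59.7 and 36.8 in EV-Cre, 38.9 and 34.2 in WT-GFP and 50.9 and 45.2 in WT-Cre, 45.98 and 45.7 in MT194-GFP and 63.5 and 40.7 in MT194-Cre, 39.9 and 37.9 in MT486-GFP and 64.2 and 42.2 in MT486-Cre, and 38 and 30.2 in DMT-GFP and 58.9 and 46.1 in DMT-Cre. In EV the second Cre library sat between the GFP libraries and the first far above them, and 0.37 was the highest EV value of any member (standard error 0.26, adjusted p = 0.417). In DMT it was 0.62 (standard error 0.26, adjusted p = 0.157, and 0.00459 with the block).

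The enzymes of nucleotide supply were followed by Rrm2 and Tyms. Rrm2 (chromosome 12, 24708241 to 24714146), the inducible subunit of ribonucleotide reductase, was at 30.2 and 36.9 CPM in EV-GFP and 39.9 and 22.2 in EV-Cre, 33.4 and 25.5 in WT-GFP and 47.5 and 46.1 in WT-Cre, 36.1 and 41.8 in MT194-GFP and 61.4 and 36.3 in MT194-Cre, 25.9 and 35.4 in MT486-GFP and 57.6 and 39.96 in MT486-Cre, and 34.99 and 26.1 in DMT-GFP and 60.8 and 33.2 in DMT-Cre. EV-Cre held both the highest and the lowest of the 4 EV libraries, and the log2 fold change of −0.11 had a standard error of 0.35 (adjusted p = 0.89). Tyms (chromosome 5, 30058202 to 30073617), thymidylate synthase, was at 34.9 and 33.5 CPM in EV-GFP and 36.04 and 28.2 in EV-Cre, 42.2 and 33.2 in WT-GFP and 52.1 and 48.6 in WT-Cre, 40.6 and 37.6 in MT194-GFP and 49.3 and 27.9 in MT194-Cre, 39.7 and 38.3 in MT486-GFP and 66.7 and 43.4 in MT486-Cre, and 36.8 and 28.2 in DMT-GFP and 44.1 and 30.7 in DMT-Cre. For Tyms the treatments were apart in WT and MT486 and overlapped in EV, MT194 and DMT.

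Uhrf1 (chromosome 17, 56303321 to 56323486), which brings DNA methyltransferase to newly copied DNA, was 1 of the 14 members with both EV-Cre libraries below both EV-GFP libraries. Its CPM was 51.1 and 63.5 in EV-GFP and 50.1 and 35.8 in EV-Cre, 45.8 and 47.6 in WT-GFP and 78.7 and 77.2 in WT-Cre, 61.2 and 77.4 in MT194-GFP and 83.9 and 52.3 in MT194-Cre, 54.3 and 68.7 in MT486-GFP and 98.5 and 71.6 in MT486-Cre, and 51.6 and 47.4 in DMT-GFP and 81.6 and 52.6 in DMT-Cre. For Uhrf1 the Cre effect of WT minus that of EV was 1.16 (standard error 0.38) with an unadjusted p of 0.00942, an adjusted p of 0.219 and one of 0.06 with the block.

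E2f1 (chromosome 2, 154559407 to 154569892), the transcription factor of the list, was higher in experiment 2 throughout. It was at 35.7 and 52.5 CPM in EV-GFP and 50.5 and 59.04 in EV-Cre, 42.4 and 46.8 in WT-GFP and 52.5 and 53.8 in WT-Cre, 45.3 and 57.8 in MT194-GFP and 56.7 and 59.4 in MT194-Cre, 39.5 and 52.96 in MT486-GFP and 61.1 and 64.97 in MT486-Cre, and 37.4 and 49.3 in DMT-GFP and 57.3 and 62.7 in DMT-Cre. In 10 of 10 groups replicate 2 was the higher library, which held for no other member. The log2 ratio of Cre to GFP was above 0 in each experiment of each construct, from 0.04 (MT194, experiment 2) to 0.62 (MT486, experiment 1). With the block E2f1 was called higher in EV, MT486 and DMT (adjusted p = 0.0279, 0.00684 and 0.00252) and not in WT (0.184) or MT194 (0.25).

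**Figure D4:**
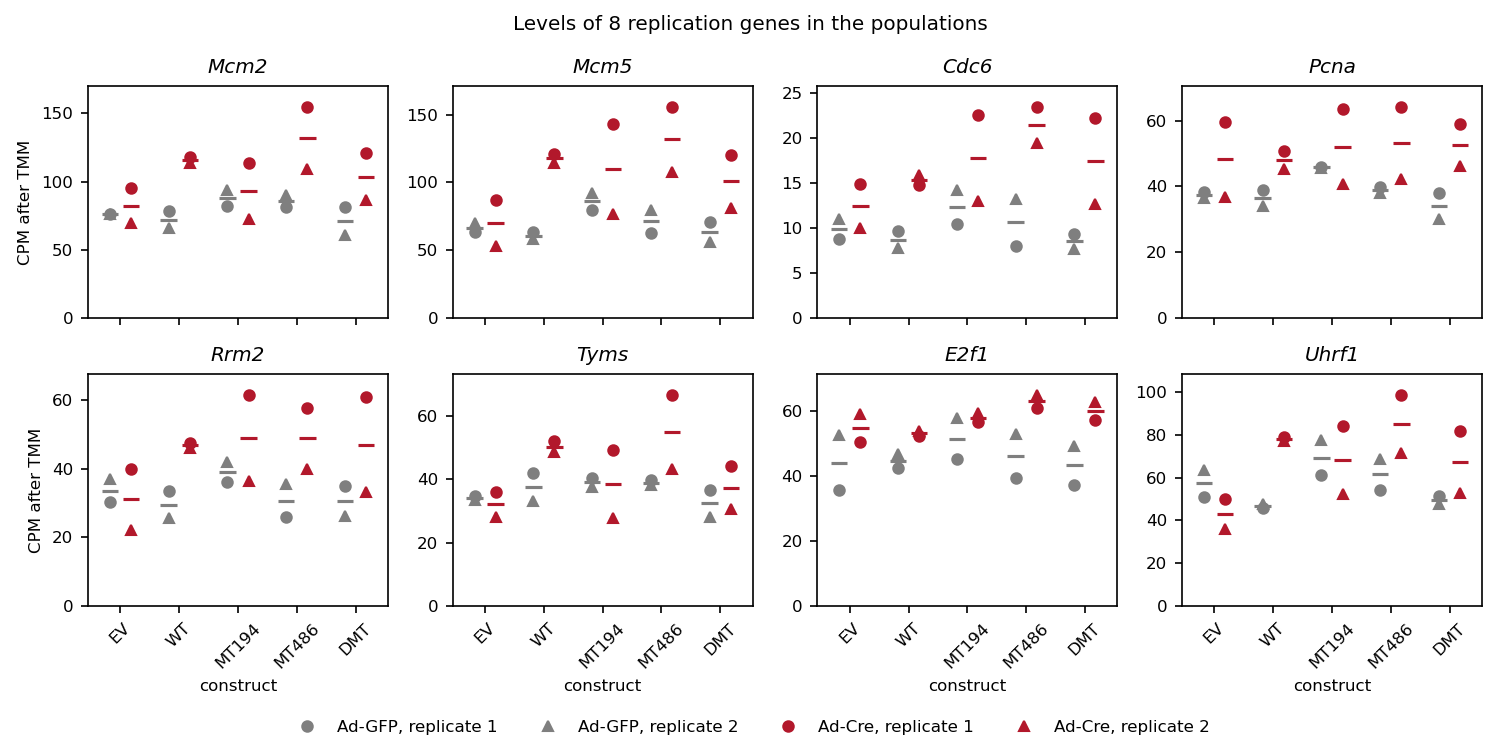
CPM after TMM normalization of 8 genes in the 20 population libraries by construct, with circles for replicate 1, triangles for replicate 2, grey for Ad-GFP, red for Ad-Cre and a bar at the mean of the 2 libraries. In 7 of the 8 panels the red circle of EV, MT194, MT486 and DMT lies above the red triangle, while in E2f1 the triangle is the higher in every group.

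The experiments differed most in the Cre libraries of EV, MT194, MT486 and DMT. Replicate 1 was higher than replicate 2 for 40 of 42 members in EV-Cre and 41 of 42 in each of MT194-Cre, MT486-Cre and DMT-Cre, with median log2 differences of 0.47, 0.70, 0.47 and 0.52. In WT-Cre it was 26 of 42 with a median of 0.03. Among the GFP groups the counts were 11 in EV, 10 in MT194, 9 in MT486, 36 in DMT and 32 in WT, with medians of −0.18, −0.17, −0.21, 0.24 and 0.15. Over all genes tested the share higher in replicate 1 lay between 49.2% and 52.8% in the 10 groups. The share of reads that lay in no annotated gene was 11.7% to 15.8% in replicate 1 libraries and 15.2% to 21.3% in replicate 2 libraries, though in DMT-Cre it was 15.81% in replicate 1 and 15.57% in replicate 2, and its part in the result was not tested.

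Genes of the following cell cycle phases were examined for comparison. Of 20 G2/M genes, which act in mitosis, all 20 were below 0 in EV (median −0.86) with a median of −0.30 in experiment 1 and −1.50 in experiment 2, and Bub1b, a spindle checkpoint kinase, and Ccnb1, cyclin B1, fell past the threshold. Bub1b was at 66.2 and 97.4 CPM in EV-GFP and 40.9 and 25.7 in EV-Cre (log2 fold change −1.30, standard error 0.35, adjusted p = 0.0288), and Ccnb1 at 18.9 and 24.4 in EV-GFP and 11.5 and 6.03 in EV-Cre (log2 fold change −1.30, standard error 0.40, adjusted p = 0.048). Neither passed without EV-Cre replicate 2 or without EV-GFP replicate 2, nor did Ccnb1 without EV-GFP replicate 1. In WT all 20 G2/M genes were above 0 (median 0.69). The Cre effect of WT minus that of EV had a median of 1.57 over the 20. Its unadjusted p was under 0.05 in all 20, against 11.7% of all genes. It passed the adjusted threshold in 0, where 0.681% of all genes did. With the block 7 of the 20 passed it, all higher, where 9.37% of all genes did in that direction, and DESeq2 called 6, where it called 3.3% of all genes in either direction. The medians were −0.04 in MT194, 0.41 in MT486 and 0.04 in DMT, with 0 of 20 called in each, with or without the block. Among all genes 4.49%, 2.54% and 10.8% were called without the block and 26.7%, 23.2% and 40.7% with it. The G2/M medians joined unlike experiments. In MT194 they were 0.415 within experiment 1 (20 of 20 above 0) and −0.67 within experiment 2 (0 of 20). For MT486 the 2 values were 0.87 (20 above 0) and −0.05 (7), and for DMT 0.365 (19) and −0.38 (1). In EV the block raised the 2 called to 6, all lower, where 21.8% of all genes were called lower.

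A second list held 40 further replication genes. In EV 20 were above and 20 below 0 with a median of −0.03. This joined a median of 0.16 within experiment 1, with 30 above 0, and −0.31 within experiment 2, with 9 above 0. Orc4, an ORC subunit, was called higher (log2 fold change 0.48, standard error 0.13, adjusted p = 0.0237), at 35.2 and 33.4 CPM in EV-GFP and 50.4 and 45.5 in EV-Cre. Rnaseh2b, a subunit of the enzyme that removes ribonucleotides from DNA, was called lower (log2 fold change −1.11, standard error 0.33, adjusted p = 0.0441), at 16.2 and 13.7 CPM in EV-GFP and 8.33 and 5.51 in EV-Cre. Neither passed when any 1 of the 4 EV libraries was left out. In WT 36 of 40 were above 0 (median 0.37), in MT194 29 (0.14), in MT486 34 (0.32) and in DMT 36 (0.31), with 0, 0, 1 and 1 called, against 0.0217%, 4.49%, 2.54% and 10.8% of all genes. The MT194 experiments again went opposite ways, with medians of 0.48 (34 of 40 above 0) and −0.165 (10 of 40). Both medians were above 0 in WT (0.33 and 0.355), MT486 (0.46 and 0.08) and DMT (0.445 and 0.10). With the block 9 were called in EV, 1 in WT, 6 in MT194, 8 in MT486 and 9 in DMT, where 43%, 5.61%, 26.7%, 23.2% and 40.7% of all genes were. The gene called in both MT486 and DMT, named after its values were seen, was Rnaseh2c, another subunit of that enzyme (log2 fold change 0.84, standard error 0.15, adjusted p = 0.00905 in MT486, and log2 fold change 0.49, standard error 0.15, adjusted p = 0.0487 in DMT).

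A further list held 17 regulators of E2F and of entry into S phase. Of these 10 were above 0 in EV, and 3 were called, which with the 2 of 40 and 2 of 20 of the other lists stand beside the 13% called among all genes. Cdkn1a, which encodes the cyclin-dependent kinase inhibitor p21, rose from 15.3 and 12.1 CPM in EV-GFP to 78.8 and 50.7 in EV-Cre (log2 fold change 2.24, standard error 0.31, adjusted p = 0.000578), and in WT it was 12.01 and 13.4 with GFP and 24.3 and 21.7 with Cre (log2 fold change 0.85, standard error 0.30, adjusted p = 0.621). E2f6, a repressor of E2F targets, rose from 4.38 and 3.12 to 9.73 and 7.25 CPM (log2 fold change 1.18, standard error 0.24, adjusted p = 0.00593). E2f2, an activator, fell from 22.1 and 29.5 to 15.2 and 12.7 CPM (log2 fold change −0.89, standard error 0.24, adjusted p = 0.0253). The groups did not overlap in any of the 3 genes. Cdkn1a passed whichever EV library was left out, whereas E2f6 did not pass without EV-Cre replicate 1 or EV-GFP replicate 2, nor E2f2 without EV-Cre replicate 1, EV-Cre replicate 2 or EV-GFP replicate 2. In DMT Cdkn1a (log2 fold change 1.75, standard error 0.31, adjusted p = 0.00316) and Ccne2, cyclin E2 (log2 fold change 1.01, standard error 0.27, adjusted p = 0.0275), were called higher, named likewise after their values were seen, and in WT, MT194 and MT486 0 of 17 were called without the block. In MT486 the log2 fold change of Cdkn1a was 1.24, and it was called with the block. In MT194 it was 0.53 and was not called with or without the block. With the block 9 of the 17 were called in EV, 1 in WT, 3 in MT194, 7 in MT486 and 10 in DMT, against 43%, 5.61%, 26.7%, 23.2% and 40.7% of all genes. The medians were 0.12 in EV, 0.23 in WT, 0.06 in MT194, 0.41 in MT486 and 0.36 in DMT. Within experiments 1 and 2 the EV medians were 0.22 (11 of 17 above 0) and −0.02 (8 of 17). Those of MT194 were 0.38 (12 of 17) and −0.18 (6 of 17). In WT (0.27 and 0.17), MT486 (0.43 and 0.27) and DMT (0.47 and 0.15) both lay above 0.

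The clones asked whether replication RNA settles at the same level in lines that live on each construct. Only Δ-C60 shared the pBabe vector of WT(N48). MT194, MT486 and the libraries labelled WT had a pLenti vector. Against WT(N48), construct and vector cannot be told apart in them. The same holds for Δ-C60 against the libraries labelled WT. In Δ-C60 against WT(N48), 33 of 42 members were below 0 (median −0.19), and 0 were called, as were 0% of all genes, with 9 members at an unadjusted p under 0.05, against 11.6% of all genes. All 3 Δ-C60 clones lay below all 3 WT(N48) clones for 8 members, Mcm6, Mcm7, Gins1, Gins4, Pcna, Rfc3, Pola1 and Lig1, against 5.63% of all genes. They lay above them for 0 members, against 5.84% of all genes. DESeq2 called 1 member, Mcm6, against 1.77% of all genes. Against the libraries labelled WT, Δ-C60 had a median of −0.455 with 38 of 42 below 0, and 6 members were called lower, where 8.38% of all genes were called. The 6 were Cdt1, Gins3, Gins4, Mcm2, Pola1 and Pold1. In MT486, 22 of 42 were above 0 (median 0.02), 0 were called against 0.287% of all genes, with 4 at an unadjusted p under 0.05 (15.1%), and all 3 clones lay above the WT(N48) clones for 11 members (13.8% of all genes). DESeq2 called 1 member there, Rpa2, against 4.47% of all genes. The libraries labelled WT had a median of 0.21, 0 called against 2.1% of all genes, 13 at an unadjusted p under 0.05 (21% of all genes), and 20 members with all 3 libraries above WT(N48), against 15.9% of all genes. DESeq2 called 6 in them, against 9.08% of all genes. Library WT 2, whose Nelfb level lay within the range of the other groups of clones, was the highest clone for 24 of 42 members.

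With WT(N48) as the reference, MT194, whose vector also differed, was the only group of clones in which edgeR called a member. In MT194 against WT(N48), 33 of 42 were below 0 with a median of −0.29, and all 8 polymerase genes and all 3 chromatin genes were. All 3 MT194 clones lay below all 3 WT(N48) clones for 15 members, against 16.4% of all genes: Mcm3, Mcm4, Mcm6, Mcm7, Gins1, Cdc6, Pcna, Rfc3, Pola1, Prim1, Pole, Rrm1, Chaf1a, Chaf1b and Uhrf1. In 2 members the fall passed the test, a share near the 3.29% of all genes that were called lower, and 8 had an unadjusted p under 0.05, fewer than the 25.8% of all genes. DESeq2 called 5, against 13.6% of all genes. Chaf1b (chromosome 16, 93883901 to 93906115), a subunit of the chromatin assembly factor that deposits histones behind the fork, was at 72.9, 66.5 and 64.3 CPM in WT(N48) and 32.6, 46.2 and 31.7 in MT194 (log2 fold change −0.88, standard error 0.17, adjusted p = 0.0152). Mcm6 (chromosome 1, 128331590 to 128359664), a helicase subunit, was at 362, 336 and 358 CPM in WT(N48) and 168, 207 and 249.5 in MT194 (−0.76, 0.18, adjusted p = 0.033). The clones of the 2 groups did not overlap in either gene. The calls depended on single clones: 0 members passed without MT194 clone 1, WT(N48) clone 1 or WT(N48) clone 2, 1 without MT194 clone 3, and 3 without WT(N48) clone 3. Mcm6 missed the threshold without MT194 clone 2 too (adjusted p = 0.0595), and Chaf1b without MT194 clone 3 (0.0521). In the fit without the libraries labelled WT, Chaf1b passed (0.0414) and Mcm6 did not (0.0602), nor did Mcm6 with those libraries as the reference (0.0659).

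The same 2 genes in the other clones were as follows. Chaf1b was at 50.4, 64.1 and 65.01 CPM in Δ-C60, 56.5, 54.7 and 53.2 in MT486 and 61.1, 65.1 and 55.96 in the libraries labelled WT, all above the highest MT194 clone. Mcm6 was at 267, 183 and 222 CPM in Δ-C60, 311, 312 and 344 in MT486 and 345, 367 and 273 in the libraries labelled WT, and the Δ-C60 and MT194 clones overlapped.

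**Figure D5:**
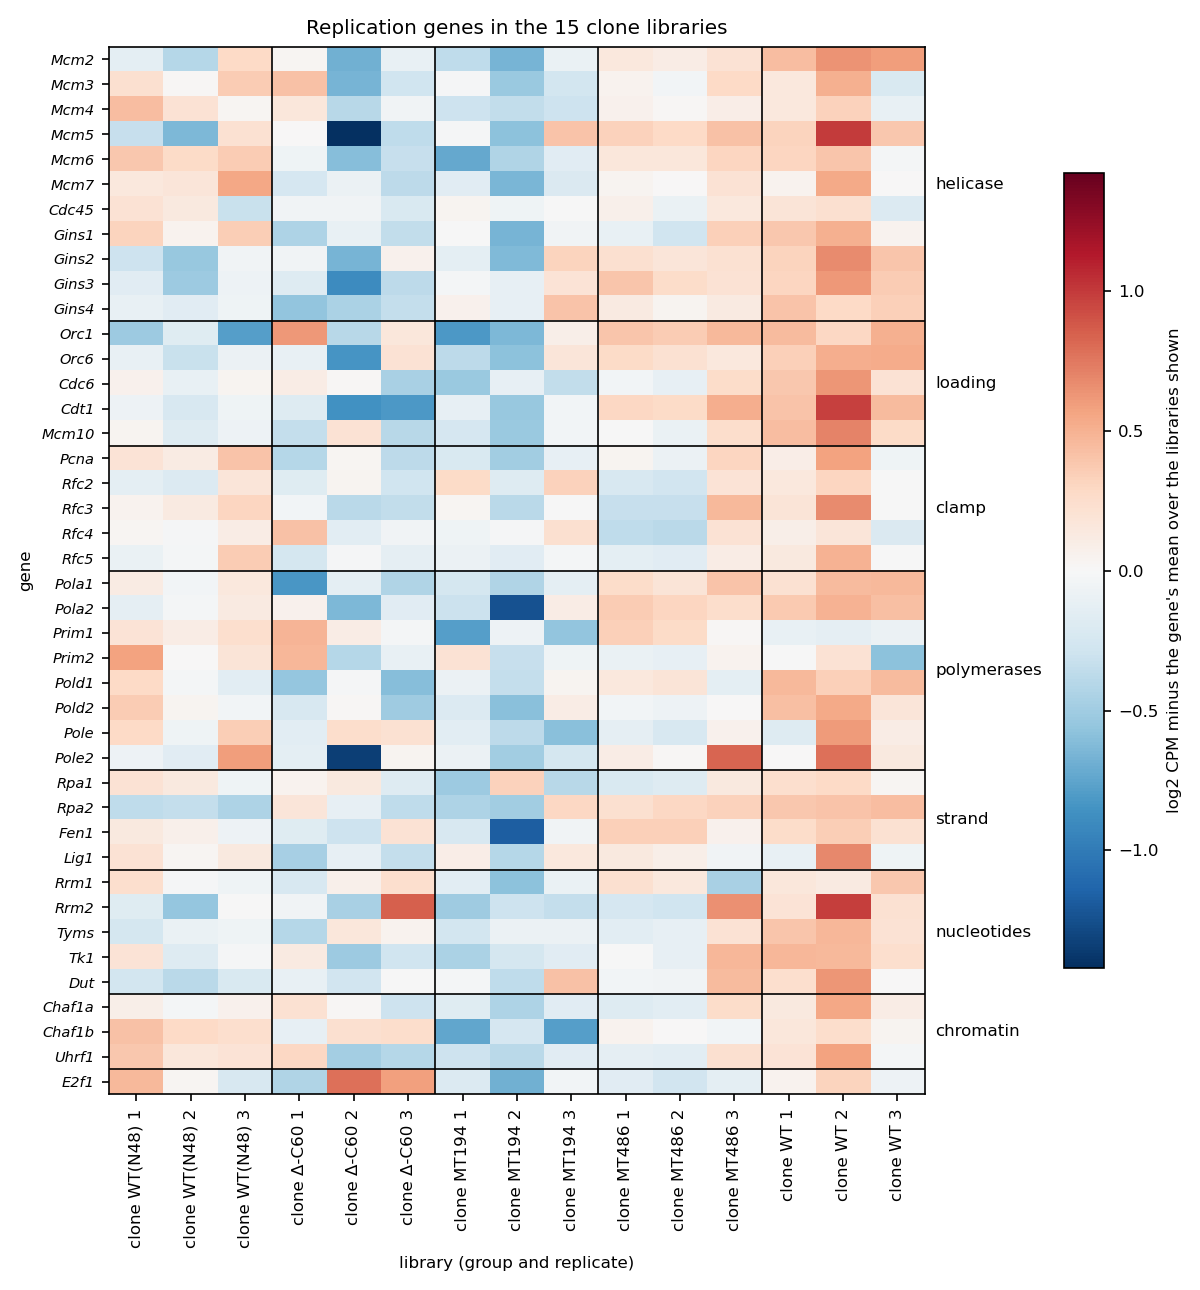
Each row is 1 of the 42 replication genes and each column 1 of the 15 clones, with colour for log2 CPM minus the gene's own mean over the 15 clones. The library labelled WT 2 lies above the mean in 41 genes and MT194 clone 2 in 1, and Δ-C60 and MT194 clones hold most of the low values.

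None of the other genes followed library by library passed the test in any of the 4 clone comparisons with WT(N48). Against the libraries labelled WT, Mcm2 was called lower in Δ-C60 and in MT194. Mcm2 was at 289.6, 240.4 and 388 CPM in WT(N48), 324, 198 and 296 in Δ-C60, 247, 201 and 297 in MT194, 353, 341 and 366 in MT486 and 430.2, 496 and 479 in the libraries labelled WT. Mcm5 was at 342, 276 and 501 CPM in WT(N48), 430.4, 161 and 334 in Δ-C60, 427, 288 and 568 in MT194, 541, 525 and 576 in MT486 and 536, 855 and 559 in the libraries labelled WT, a 5.32-fold range from Δ-C60 clone 2 to the library labelled WT 2, the widest of any member. For both genes the libraries labelled WT lay above all WT(N48) clones.

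Cdc6 was at 62.3, 55.4 and 61.1 CPM in WT(N48), 64.3, 60.5 and 43.3 in Δ-C60, 41.5, 55.1 and 46.6 in MT194, 58.2, 54.9 and 71.4 in MT486 and 77.7, 92.1 and 68.9 in the libraries labelled WT. Pcna was at 145, 138 and 168 CPM in WT(N48), 95.4, 129 and 97.6 in Δ-C60, 109, 89.5 and 117 in MT194, 130.3, 119 and 156 in MT486 and 135, 189 and 121 in the libraries labelled WT. All Δ-C60 and MT194 clones lay below all WT(N48) clones in Pcna (log2 fold changes −0.48 and −0.51, adjusted p = 0.369 and 0.122), but not past the threshold. Rrm2 was at 130.3, 101 and 147 CPM in WT(N48), 142, 107 and 265 in Δ-C60, 104, 120.4 and 117 in MT194, 125, 121 and 232 in MT486 and 168, 290.3 and 171 in the libraries labelled WT. Tyms was at 79.2, 87.9 and 89.8 CPM in WT(N48), 71, 105 and 97.4 in Δ-C60, 78.3, 88.5 and 88.7 in MT194, 84.9, 86.8 and 109 in MT486 and 124, 130 and 109 in the libraries labelled WT. A single clone stood high in Rrm2 in each of Δ-C60 (clone 3) and MT486 (clone 3).

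Uhrf1 was at 288, 247 and 253 CPM in WT(N48), 270.4, 158 and 167 in Δ-C60, 180, 169 and 197 in MT194, 203, 199 and 258 in MT486 and 252, 329 and 217 in the libraries labelled WT. The MT194 clones were all below the WT(N48) clones (log2 fold change −0.53, adjusted p = 0.143). E2f1 was at 136, 100.3 and 84.3 CPM in WT(N48), 73.3, 169.6 and 148 in Δ-C60, 85.98, 61.5 and 95.8 in MT194, 88.2, 81.5 and 89.8 in MT486 and 102, 123 and 93.8 in the libraries labelled WT. Here Δ-C60 clones 2 and 3 were the highest of all 15 clones and Δ-C60 clone 1 the second lowest.

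In the comparison lists the MT194 clones were also low. Of the 40 further replication genes 31 were below 0 (median −0.27), and Gmnn, Hells and Dbf4 were among those called lower, where 3.29% of all genes were, while of 20 G2/M genes 18 were below 0 (median −0.45), with Ccnb1, Cenpe and Kif20a called lower. Of the 17 regulators E2f3 and E2f7 were called lower. Those 8 genes were named after their values were seen. Gmnn, which encodes geminin, the inhibitor of Cdt1, had the lowest called value of the replication list (log2 fold change −1.16, standard error 0.18, adjusted p = 0.00637). In Δ-C60 the medians of these lists were 0.01 and 0.06, with 0 called in each, and in MT486 they were 0.07 and −0.08, with 0 called. In the libraries labelled WT, Clspn, a checkpoint adaptor at the fork (log2 fold change 0.75, standard error 0.16, adjusted p = 0.0343), and Rnaseh2a (log2 fold change 0.90, standard error 0.17, adjusted p = 0.0268) were called higher, 2 of 40, where 123 of 13223 genes were. Both were also named after their values were seen.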

How the data were processed

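RNA of 20 populations and 15 clones was sequenced from stranded poly(A) libraries as single reads. Per the study's methods, the authors mapped reads onto mm10 by bowtie2, kept those of mapping quality 30 or more, and deposited raw counts per gene from HTSeq. Whether strand was used in counting is not given in the sources used here. Rows for reads in no gene (9.14% to 21.3% of reads) or in several (0.911% to 1.13%) were left out.

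Populations and clones were fitted separately in edgeR 4.0.16 (R 4.3.3) with the quasi-likelihood test, TMM normalization and a filter on low counts. A call is a Benjamini-Hochberg adjusted p under 0.05 over all genes tested, with no minimum fold. With 2 or 3 libraries a group, the spread behind a p-value was estimated over all populations or all clones together. For clones it lies between labelled lines, though MT486 clones 1 and 2 may be 1 line. The members and lists were chosen with earlier results of these data known. The 8 genes followed library by library, up to 6 called members per comparison and, in EV, up to 3 called genes per direction of the other lists were named by rule, and other genes after their values were seen. Log2 ratios within an experiment used CPM with a pseudocount of 0.5.

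The study describes 2 independent experiments without tying them to replicate numbers. Deviations of same-numbered population libraries from their group means correlated above 0.1 in 45 of 45 pairs of groups (median 0.586), so the number was taken as the experiment, and blocked values are given where they change a count of calls. Clone numbers did not pair (3 of 30, median −0.0146). Alternatives were the block, DESeq2 1.42.0, its size factors, no filter, a minimum log2 fold change of 0.5, each library left out, and WT-labelled clones as reference. MT486 clones 1 and 2 summed and the fit without WT-labelled clones were added after the data were seen. The fits were tested on simulated data, with no outcome given here.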

Additional observations from a re-analysis of the deposited data

Results flagged for a closer look

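The difference between the Cre effects of each construct and EV was tested for Nelfb, and it passed for all 4 constructs: 2.27 on the log2 scale for WT (adjusted p = 0.00574, edgeR), 3.38 for MT194 (0.000449), 3.18 for MT486 (0.00089) and 4.15 for DMT (4.26e-05). Reads of the ectopic cDNA count with those of the endogenous gene. No replication gene passed the same tests without the block.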

How the results depend on the processing

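The result for MT486 clones depended on the reference. Against the WT-labelled clones, of which 1 and 3 held little Nelfb RNA, the members' median in MT486 clones was −0.245, with 39 of 42 lower. Against WT(N48) it was 0.02, with 20 lower and 22 higher. With the replicate block for the paired populations, calls among the 42 genes went from 0 to 4 in EV, 4 in WT, 12 in MT486, 8 in DMT and 10 in the difference of WT and EV, and stayed at 0 in MT194 and the other differences. In clones, whose numbers share no origin, the block left 1 of 2 calls in MT194. DESeq2 called 1 gene in MT486, 3 in DMT, 1 in the difference of WT and EV, 1 in Δ-C60 clones, 5 in MT194 clones, 1 in MT486 clones and 6 in WT-labelled clones. With that reference Δ-C60 had 6 lower calls (8.38% of all genes called; median −0.455), MT194 had 2, Chaf1b and Mcm2 (2.91%; median −0.54, 39 of 42 lower), and MT486 had 0. Without the WT-labelled clones in the fit MT194 had 1. Leaving out 1 clone gave 0 to 1 calls in Δ-C60, with 1 without Δ-C60 clone 2, and 0 to 3 in MT194. Over all 42 genes a population library held 24772 reads or more and a clone library 83832 or more.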
